A study of Rattus norvegicus with 9 samples.

Results

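The collagen genes were taken as all rows of the gene count tables whose symbol is Col, a number, the letter a and a number, with 10 or more counts summed over the 9 libraries. There were 44 such genes among the 18733 in the tables, and all 44 symbols that fitted the name pattern reached the count minimum. By the structure of the protein they fell into 7 classes: 11 fibrillar, 8 basement membrane, 6 type VI, 9 fibril-associated (FACIT), 3 network-forming, 4 transmembrane and 3 other chains. The filter on low counts kept 40 of the 44 for testing. Col4a4, Col8a1, Col10a1 and Col17a1 did not pass this filter, and none of the 4 was called when the filter was left off.

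RNA came from the hippocampus of male rats, with 3 rats and 3 libraries in each of 3 groups. Control rats received regular feeding and no further procedure is given for them. Rats with post-stroke cognitive impairment (PSCI) had undergone middle cerebral artery occlusion (MCAO), a surgical model of ischaemic stroke, and were then fed regularly for 2 weeks. Rats of the transcutaneous auricular vagus nerve stimulation (taVNS) group had the same occlusion and the same entry test, and received electrical stimulation of the vagal branch of the outer ear over 14 days. Only operated rats whose alternation rate and cognitive index both fell under a limit stated as 20% of the control mean entered the last 2 groups, by random allocation. Strain, age, sham surgery, sham stimulation and the hemisphere sampled are not given in the sources used here. The extraction text names the mouse, whereas every sample is labelled as rat.

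Collagens are secreted or membrane-bound proteins built from 3 chains wound into a triple helix. Fibrillar collagens form the fibrils of connective tissue, type IV collagen forms the sheet of the basement membrane, fibril-associated collagens sit on the surface of fibrils, and transmembrane collagens stay anchored to the cell that makes them. In the healthy brain, interstitial collagen is largely restricted to the meninges and the walls of larger vessels, while type IV collagen surrounds capillaries, and some of the minor chains are made by neurons. After an ischaemic lesion, fibroblasts and perivascular cells can deposit collagen in a fibrotic scar.

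Each library held between 13747381 and 15415684 estimated counts, and a floor of 3 counts in 1 library corresponded to 0.195 to 0.218 CPM, the unit of counts relative to the total of a library. The 10 listed markers of hippocampal neurons summed to 3960 to 9200 CPM per library, and none was at 0 in all libraries. PSCI 2 had the lowest neuronal sum, 3960 CPM, against 6350 to 9200 CPM elsewhere. The summed level of 18 marker genes of meninges and fibroblasts, collagens left out, was 377 CPM in PSCI 2 and 429 CPM in taVNS 3, against 67.3 to 105 CPM in the other 7 libraries. These 2 libraries stood apart from the rest of their groups, and results that rest on them are given with and without them. In whole tissue, fewer cells of a type and less RNA per cell cannot be told apart.

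Levels can be compared between genes only per transcript length, as RPKM (reads scaled for transcript length and sequencing depth). Over the 9 libraries, Col11a2 had the highest mean RPKM of all collagens, 34.2, ahead of Col4a2 at 22.5 and Col25a1 at 21.7. Col16a1 followed at 16.6, Col6a1 at 16.4 and Col4a1 at 12.3. The textbook collagens of scar and connective tissue stood lower, with a mean RPKM of 5.13 for Col1a2, 3.92 for Col3a1 and 3.28 for Col1a1. Col17a1 was the lowest, at 0.0867 RPKM. The order depends on the group. In control, Col11a2 led with 38.8 ± 5.63 RPKM (SD, n = 3) and Col25a1 came next with 25.9 ± 3.3 RPKM. In PSCI, Col4a2 led with 27.1 ± 6.52 RPKM, and Col16a1 (20.8 ± 6.96 RPKM), Col4a1 (18.5 ± 3.63 RPKM), Col5a3 (16.7 ± 8.6 RPKM) and Col11a2 (16.2 ± 5.69 RPKM) overlapped within their SD. In taVNS, Col11a2 led again with 47.5 ± 6.42 RPKM, before Col25a1 with 26.5 ± 1.98 RPKM.

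Occlusion with cognitive impairment was first compared with control. Of the 40 collagens tested, 8 changed (edgeR quasi-likelihood F test, Benjamini-Hochberg adjusted p under 0.05), which is 20%, while the background over all 14840 genes was 9.85%. Col11a1, Col15a1, Col4a1, Col13a1 and Col18a1 rose, and the background for higher calls was 7.71% of all genes. Col25a1, Col11a2 and Col27a1 fell, and the background for lower calls was 2.14%. The median log2 difference of the 40 collagens was 0.535, with 26 above 0 and 14 below, and that of all genes was -3.68e-05. In 11 collagens all 3 PSCI values lay above all 3 control values, and in 5 all lay below, out of 40. Over all genes, 27.4% were separated, 16.2% upward and 11.3% downward. The p-values measure the spread between rats, because each library is labelled as tissue of 1 animal.

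**Figure D1:**
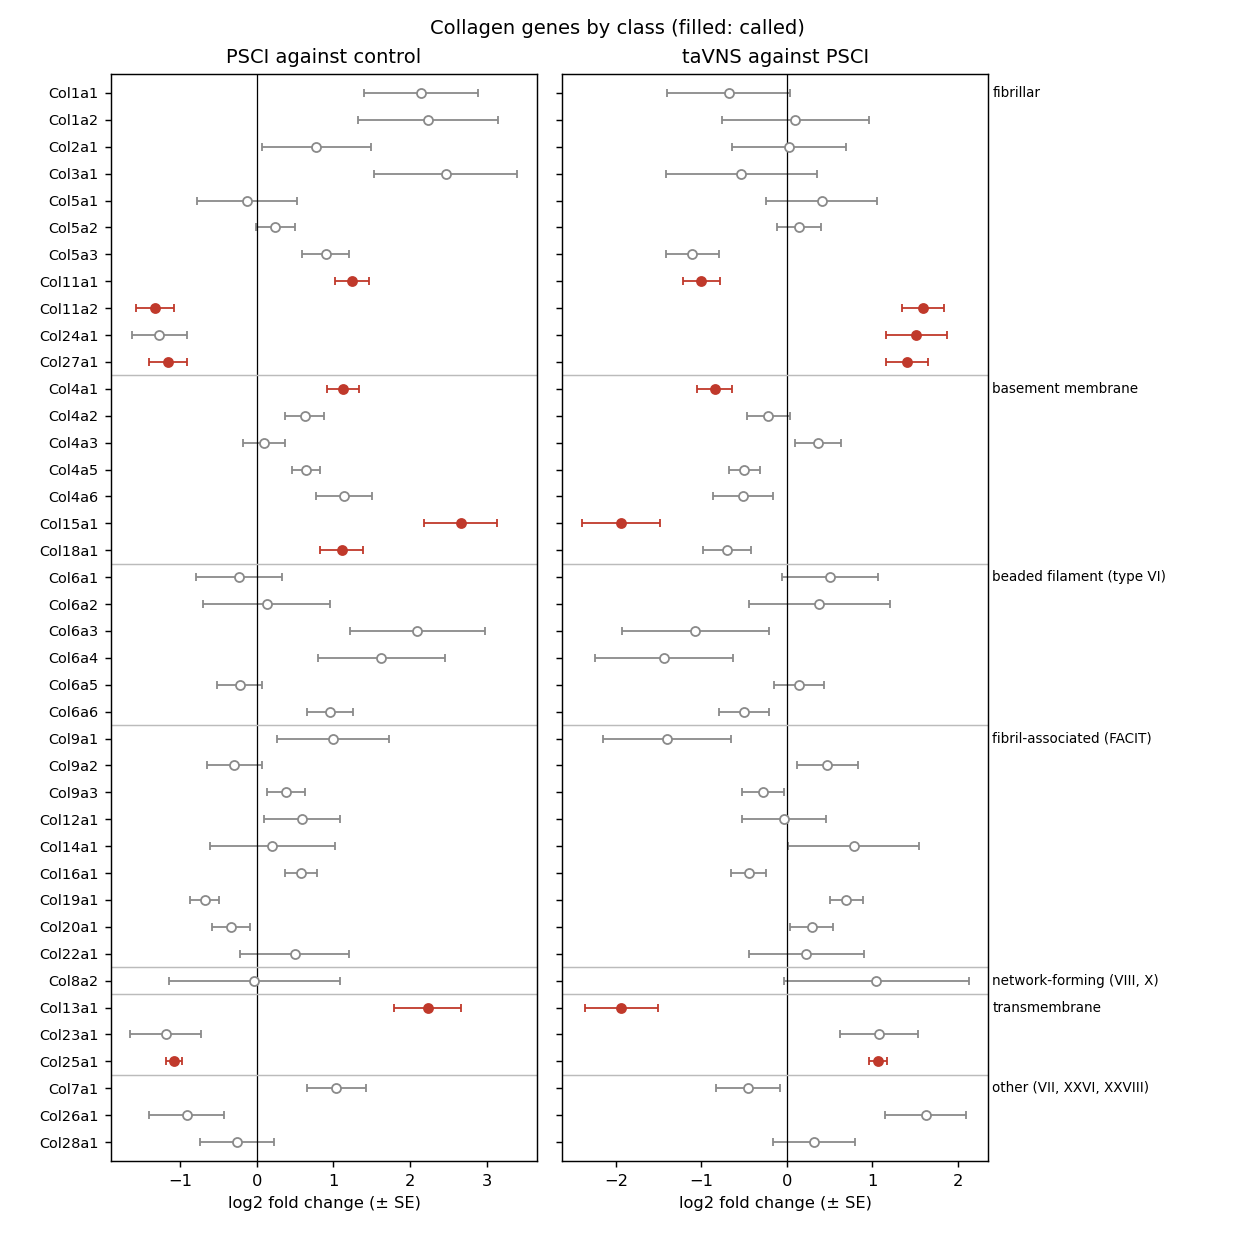
Log2 fold change of each of the 40 tested collagens, grouped by class, in PSCI against control (left) and taVNS against PSCI (right), with bars of 1 SE and filled points for called genes. In PSCI against control the 7 tested basement membrane chains all lie above 0, and the called genes Col25a1, Col11a2 and Col27a1 lie below 0.

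The fibrillar class split in PSCI. Of its 11 members 1 rose (9.09%, near the 7.71% of all genes) and 2 fell (18.2%, against 2.14% of all genes). The median log2 difference was 0.779. Col11a1 and Col11a2 encode chains of type XI collagen, a minor fibrillar collagen best known for setting the diameter of cartilage fibrils. Col11a1 stood at 18.8, 17.6 and 23.2 CPM in control, 42.8, 37.3 and 60.4 CPM in PSCI, and 24.0, 17.8 and 28.6 CPM in taVNS. Every PSCI value was above every value of the other groups, and the control and taVNS values overlapped. The rise in PSCI was 2.36-fold (log2 1.24 ± 0.221 SE, adjusted p = 0.0105, edgeR). It missed the threshold only without control 2 (log2 1.16, adjusted p = 0.052) among the 18 alternatives. Col11a2, the more abundant partner, moved the other way. Its level was 192, 251 and 239 CPM in control, 119, 53.7 and 99.3 CPM in PSCI, and 308, 256 and 259 CPM in taVNS. All 3 PSCI values were below the lowest control value. Col11a2 fell by 1.33 on the log2 scale (SE 0.25, 2.51-fold, adjusted p = 0.0133, edgeR). That call was lost without control 2 (adjusted p = 0.0539) or control 3 (adjusted p = 0.0604).

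Col27a1 and Col24a1 encode fibrillar collagens described mainly in developing cartilage and bone. Col27a1 had 46.3, 76.1 and 90.7 CPM in control, 27.1, 35.1 and 33.8 CPM in PSCI, and 92.1, 63.7 and 98.2 CPM in taVNS. The PSCI libraries were the 3 lowest of the 9. Col27a1 fell in PSCI by 1.15 on the log2 scale (SE 0.248, 2.22-fold, adjusted p = 0.0216, edgeR), and the call was lost without control 2 (adjusted p = 0.074), control 3 (adjusted p = 0.0739) or PSCI 3 (adjusted p = 0.0627), and in both limma fits of RPKM (adjusted p = 0.051 and 0.0593). Col24a1 was less abundant, with 7.59, 6.09 and 6.68 CPM in control, 3.41, 2.10 and 2.94 CPM in PSCI, and 11.8, 8.32 and 4.10 CPM in taVNS. Here too the 3 PSCI values were the lowest, yet the difference from control missed the threshold (log2 -1.27 ± 0.358 SE, adjusted p = 0.0574, edgeR). It passed without taVNS 1 (log2 -1.28, adjusted p = 0.0463) or taVNS 3 (log2 -1.28, adjusted p = 0.0203), although neither library belongs to the groups compared: leaving one out changes the genes tested, the scaling and the shared estimate of spread.

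**Figure D2:**
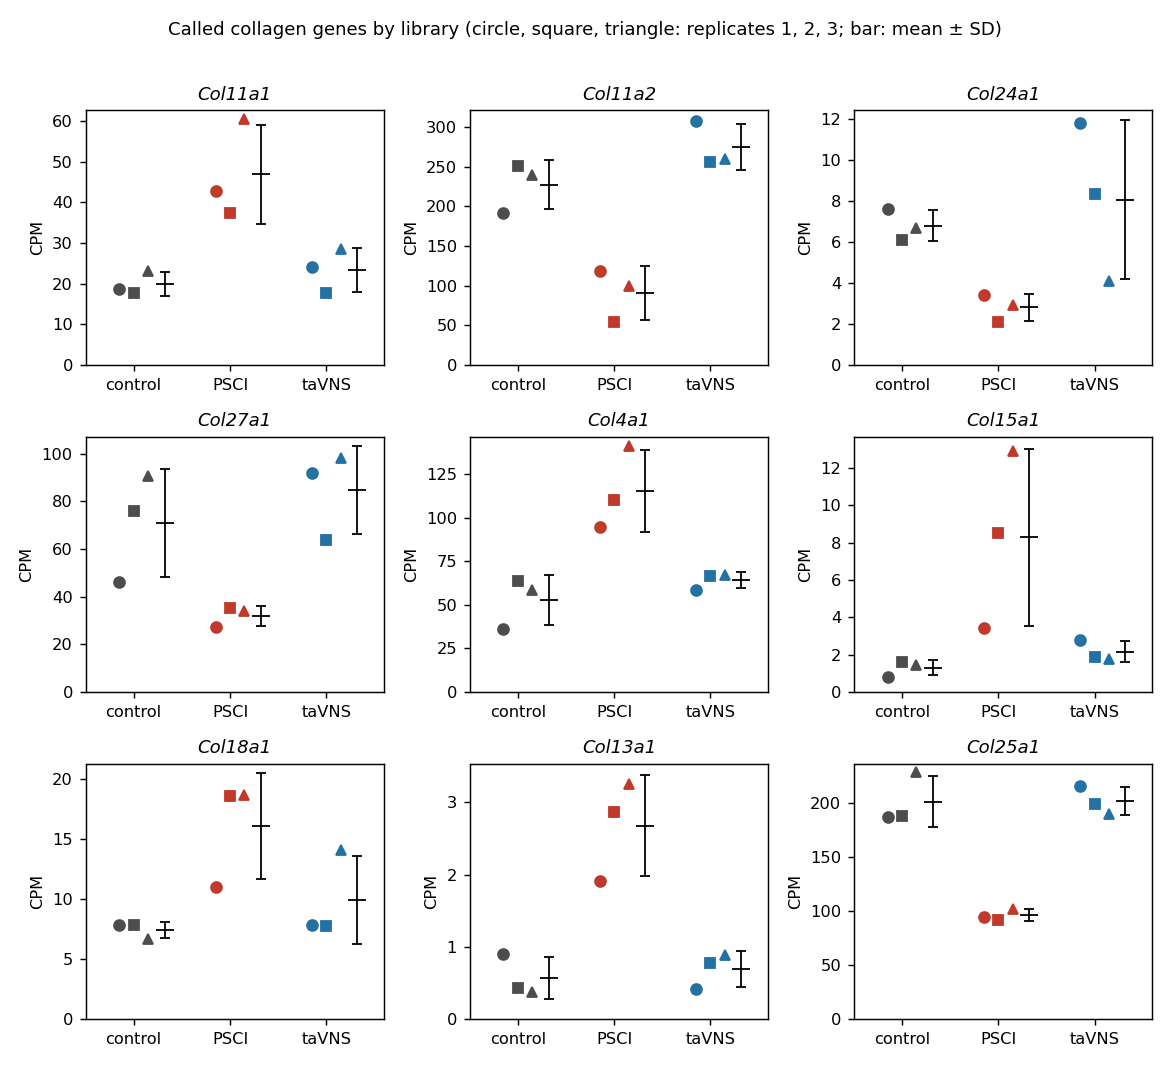
Level of each called collagen in every library, in CPM on a linear axis from 0, with 1 point for each rat and a bar for the mean ± SD of the group. The PSCI points of Col11a1, Col4a1, Col15a1 and Col13a1 sit above both other groups, and those of Col25a1, Col11a2, Col27a1 and Col24a1 sit below both.

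Types I and III are the bulk collagens of meninges, vessel adventitia and scar. Col1a1 had 6.83, 8.50 and 4.33 CPM in control, 12, 53.7 and 21.1 CPM in PSCI, and 6.24, 8.53 and 39.3 CPM in taVNS. Col1a2 had 5.87, 6.30 and 5.51 CPM in control, 12.9, 51.7 and 18.3 CPM in PSCI, and 5.26, 9.65 and 73.8 CPM in taVNS. Col3a1 had 4.83, 5.74 and 4.41 CPM in control, 8.11, 60.2 and 14.2 CPM in PSCI, and 4.13, 8.04 and 45.0 CPM in taVNS. All 3 genes peaked in PSCI 2 and taVNS 3, the libraries with the high meningeal sums, yet in PSCI 1 and PSCI 3 they also lay above every control value. With all libraries no difference from control passed the test: the log2 value was 2.14 ± 0.745 SE for Col1a1 (adjusted p = 0.118), 2.23 ± 0.911 SE for Col1a2 (adjusted p = 0.174) and 2.46 ± 0.937 SE for Col3a1 (adjusted p = 0.15, edgeR). With PSCI 2 and taVNS 3 both left out, the differences were smaller and their errors smaller still. Col1a1 then rose 2.49-fold in PSCI (log2 1.32 ± 0.322 SE, adjusted p = 0.0407) and Col1a2 2.62-fold (log2 1.39 ± 0.268 SE, adjusted p = 0.0175), while Col3a1 missed the threshold (log2 1.14 ± 0.327 SE, adjusted p = 0.0687, edgeR). Without taVNS 3 alone, Col1a1 (adjusted p = 0.0421) and Col1a2 (adjusted p = 0.0313) also passed. The meningeal sum in PSCI 1 (79.5 CPM) and PSCI 3 (88.2 CPM) was within the control range of 74 to 105 CPM. Of the 17 tested markers, 4 (Islr, Aldh1a2, Mgp and Omd) were above every control in all 3 PSCI libraries, where 16.2% of all genes were. Aldh1a2, for example, had 3.27 CPM in PSCI 1 and 6.98 CPM in PSCI 3 against at most 2.07 CPM in control. With all libraries 15 of the 17 log2 differences were above 0 and 2 below, those of Lum (-0.31) and Igf2 (-0.34). The part of meningeal tissue in the Col1a1 and Col1a2 values was not tested.

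**Figure D3:**
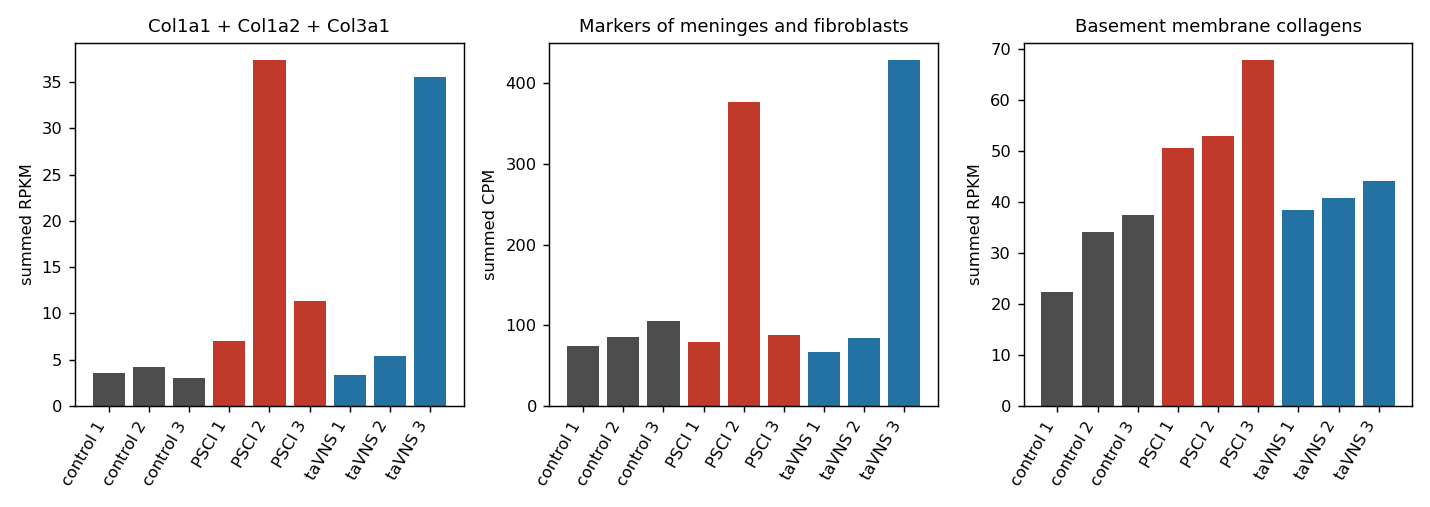
Bars for each library give the summed RPKM of Col1a1, Col1a2 and Col3a1 (left), the summed CPM of the meningeal and fibroblast markers without collagens (middle) and the summed RPKM of the 8 basement membrane collagens (right). PSCI 2 and taVNS 3 stand apart in the left panel, at 37.4 and 35.6 RPKM, and in the middle panel, but not in the right one, where the 3 PSCI libraries are highest at 50.6 to 67.8 RPKM.

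Type V collagen, which joins type I in mixed fibrils, did not pass the test for any chain. Col5a3 had 38.9, 54.8 and 45.8 CPM in control, 49.6, 135 and 74.6 CPM in PSCI, and 41.4, 35.3 and 44.3 CPM in taVNS. The high value was that of PSCI 2, and the difference from control was log2 0.90 ± 0.31 SE (adjusted p = 0.109, edgeR) with all libraries and 0.40 ± 0.195 SE (adjusted p = 0.251) without PSCI 2 and taVNS 3. Without PSCI 1 it passed (log2 1.17, adjusted p = 0.0132). Col5a2 had 40.9, 66.7 and 69.9 CPM in control, 53.3, 64.6 and 91.8 CPM in PSCI, and 65.2, 70.7 and 95.8 CPM in taVNS, and the groups overlapped. Col5a1 ranged from 26.3 CPM in PSCI 1 to 137 CPM in taVNS 3, also with overlapping groups. Col2a1, the main collagen of cartilage, stayed between 0.345 and 2.36 CPM.

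Basement membrane chains lay higher in PSCI as a class. Of 7 tested, 3 rose (42.9%, against 7.71% of all genes) and none fell. All 7 log2 differences were above 0, where 7419 of 14840 were over all genes, and their median was 1.11. The summed RPKM of the 8 chains was 22.4, 34.1 and 37.4 in control, 50.6, 53.0 and 67.8 in PSCI, and 38.5, 40.8 and 44.0 in taVNS, so that the 3 groups did not overlap. The sum was carried by Col4a2, with 26.8, 20.8 and 33.8 RPKM in PSCI, and Col4a1, with 15, 18.4 and 22.2 RPKM. Col4a1 and Col4a2 encode the chains that make up the type IV network of nearly all basement membranes, including those of brain capillaries. Their genes lie head to head and share the stretch between their start sites, shown here because both genes begin at its ends. In the RefSeq annotation of GRCr8, a newer assembly than the authors' build, this stretch is chr16:84885521-84885596, and its plus strand is printed 5′ to 3′ with capitals marking a GC box (GGGCGG, or CCGCCC on the other strand).
Col4a1/Col4a2: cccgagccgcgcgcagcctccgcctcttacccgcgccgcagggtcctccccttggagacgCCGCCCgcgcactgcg
The GC box was found on either strand in 32.4% of 27457 RefSeq promoter windows and in 19 of the 35 collagens with an entry (54.3%). A window was the 250 bases before the first listed start of a gene, longer than the 76 bases printed above. A match describes the letters and not a bound site.

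Col4a1 stood at 36.2, 63.7 and 58.5 CPM in control, 94.9, 110 and 141 CPM in PSCI, and 58.8, 66.5 and 67.1 CPM in taVNS. Each PSCI value exceeded all 6 others. The rise of 2.18-fold in PSCI (log2 1.12 ± 0.209 SE, adjusted p = 0.0121, edgeR) stayed past the threshold under all 18 alternatives, with a largest adjusted p of 0.043. Col4a2 had 68.1, 107 and 139 CPM in control, 162, 118 and 204 CPM in PSCI, and 132, 148 and 137 CPM in taVNS. PSCI 2 lay inside the control range, and the difference was log2 0.62 ± 0.254 SE (adjusted p = 0.164, edgeR). Col4a5, a chain of another type IV network, had 17.3, 16 and 11.8 CPM in control, 21.0, 28.1 and 21.3 CPM in PSCI, and 15.7, 15.5 and 18.8 CPM in taVNS. Its PSCI values were the 3 highest, but the test was narrowly missed (log2 0.64 ± 0.179 SE, adjusted p = 0.0542, edgeR), and it passed without PSCI 1 (adjusted p = 0.0427). Of the remaining type IV chains, Col4a6 differed by log2 1.14 ± 0.362 SE (adjusted p = 0.0833) and Col4a3 by 0.09 ± 0.274 SE (adjusted p = 0.876, edgeR). Col4a4 held 2 to 9 counts per library.

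Col15a1 and Col18a1 encode the multiplexins, collagens with heparan or chondroitin sulphate chains that link the basement membrane to the tissue around it. Col18a1 is also the source of the fragment endostatin. Col15a1 was scarce in control, with 0.828, 1.63 and 1.47 CPM, and reached 3.41, 8.54 and 12.9 CPM in PSCI, against 2.80, 1.89 and 1.78 CPM in taVNS. The control, taVNS and PSCI ranges did not overlap. The 6.31-fold rise in PSCI was the largest among the called collagens (log2 2.66 ± 0.479 SE, adjusted p = 0.0113, edgeR), and without PSCI 2 and taVNS 3 it was 6.15-fold (adjusted p = 0.0231). Without control 3 the adjusted p was 0.0503. Col18a1 had 7.80, 7.86 and 6.68 CPM in control, 11, 18.6 and 18.7 CPM in PSCI, and 7.85, 7.76 and 14.1 CPM in taVNS. All PSCI values exceeded control, and taVNS 3 fell within the PSCI range. The 2.16-fold rise (log2 1.11 ± 0.281 SE, adjusted p = 0.0396, edgeR) was lost without control 1, 2 or 3, PSCI 2 or 3, or taVNS 1, with adjusted p from 0.0508 to 0.141. It was also lost with limma-voom (adjusted p = 0.061), in both RPKM fits (0.0586 and 0.0602) and with a replicate block (0.0604), and was 1.97-fold (adjusted p = 0.036) with PSCI 2 and taVNS 3 both left out.

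Transmembrane collagens moved in opposite directions. Col25a1 encodes a collagen made by neurons whose shed part is found in amyloid plaques. Its level was 187, 188 and 229 CPM in control, 94.4, 91.6 and 102 CPM in PSCI, and 216, 199 and 190 CPM in taVNS. The PSCI values were all far below the other 6, and the spread within PSCI was small (95.9 ± 5.23 CPM, SD, n = 3). Col25a1 fell by 1.07 on the log2 scale in PSCI (SE 0.104, 2.10-fold, adjusted p = 9.36e-04, edgeR), the smallest adjusted p of any collagen. It kept its call under all 18 alternatives, with a largest adjusted p of 0.00766. The neuronal marker sum of PSCI 1, 8470 CPM, lay within the control range of 7180 to 8640 CPM, while Col25a1 was 94.4 CPM in that library. That sum was low in PSCI 2 (3960 CPM), and Snap25, a synaptic gene on the same list, was below every control in all 3 PSCI libraries (1410, 1110 and 1530 CPM against 1640 to 2140 CPM). The part of neuron number in the Col25a1 result was not tested.

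Col13a1 encodes a transmembrane collagen known from the neuromuscular junction, and it rose from a low level. It stood at 0.897, 0.425 and 0.367 CPM in control, 1.91, 2.87 and 3.26 CPM in PSCI, and 0.42, 0.769 and 0.888 CPM in taVNS. All PSCI values lay above all others, at 4.69-fold the control level (log2 2.23 ± 0.44 SE, adjusted p = 0.0142, edgeR). The call was lost without control 2 (adjusted p = 0.0667), control 3 (adjusted p = 0.0691) or PSCI 3 (adjusted p = 0.0542). Col23a1, another transmembrane chain, had 19.5, 24.8 and 39.8 CPM in control, 8.66, 19.6 and 8.68 CPM in PSCI, and 31.5, 12 and 34.8 CPM in taVNS. PSCI 2 just overlapped control (log2 -1.18 ± 0.46 SE, adjusted p = 0.15, edgeR). With PSCI 2 and taVNS 3 both left out, Col23a1 passed, with a fall of 3.26-fold (adjusted p = 0.0474).

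The upstream sequences of Col11a1 and Col13a1 are printed as those of 2 called members that rose and whose 250 bases before the start overlap no other annotated gene. They come from RefSeq on GRCr8 and run 5′ to 3′ on the strand of the gene, chr2:204508886-204509135 on the plus strand for Col11a1 and chr20:30466801-30467050 on the minus strand for Col13a1. Capitals mark the CCAAT box (CCAAT, or ATTGG on the other strand), the GC box and the TATA box (TATAAA, or TTTATA).
Col11a1: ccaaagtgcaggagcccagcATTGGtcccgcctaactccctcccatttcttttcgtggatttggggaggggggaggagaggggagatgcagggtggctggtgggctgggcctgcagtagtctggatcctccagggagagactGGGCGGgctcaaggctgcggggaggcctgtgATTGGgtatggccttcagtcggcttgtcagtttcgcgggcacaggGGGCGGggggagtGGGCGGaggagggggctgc
Col13a1: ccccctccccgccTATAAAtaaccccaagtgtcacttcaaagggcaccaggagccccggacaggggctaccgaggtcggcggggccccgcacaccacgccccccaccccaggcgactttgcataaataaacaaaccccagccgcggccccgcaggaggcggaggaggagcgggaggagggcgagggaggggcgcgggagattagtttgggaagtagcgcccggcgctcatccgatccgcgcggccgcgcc
Col11a1 held 2 CCAAT boxes and 3 GC boxes, and Col13a1 held 1 TATA box that begins 237 bases before the start. Over all windows 34.3% held a CCAAT box and 13.1% a TATA box, against 11 of 35 (31.4%) and 4 of 35 (11.4%) collagens. TGACGTCA, the cAMP response element, was in 1.7% of windows and in 1 collagen, Col24a1.

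Neither type VI nor the fibril-associated class had a member that passed in PSCI against control. Type VI collagen forms beaded microfibrils around cells, and its 3 abundant chains varied widely between rats of 1 group. Col6a1 had 45.3, 67.0 and 71.5 CPM in control, 104, 36.5 and 16.4 CPM in PSCI, and 79.2, 99.4 and 44.1 CPM in taVNS. Col6a2 had 11.7, 42.2 and 32.4 CPM in control, 10, 57.0 and 27.3 CPM in PSCI, and 20.2, 11.3 and 91.5 CPM in taVNS. Col6a3 had 2.69, 5.10 and 8.67 CPM in control, 3.41, 25.7 and 41.0 CPM in PSCI, and 8.69, 2.80 and 21.9 CPM in taVNS. Col6a2 was highest in PSCI 2 and taVNS 3, whereas Col6a1 was below the control range in both. Col6a3 differed by log2 2.09 ± 0.883 SE (adjusted p = 0.187, edgeR) and passed only without PSCI 1 (log2 2.6, adjusted p = 0.0436). The other 3 type VI chains reached at most 4.96 CPM, and of these Col6a6 passed without PSCI 1 (log2 1.17, adjusted p = 0.0226).

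Among fibril-associated collagens, Col19a1 is known for its production by hippocampal interneurons. It had 42.2, 53.4 and 72.4 CPM in control, 35.4, 35.6 and 33.9 CPM in PSCI, and 61.6, 46.0 and 62.8 CPM in taVNS. The 3 PSCI values were the lowest and nearly equal, and the difference narrowly missed the threshold (log2 -0.68 ± 0.191 SE, adjusted p = 0.0568, edgeR). It passed without control 1 (log2 -0.85, adjusted p = 0.0323). Col16a1, a chain found beside fibrils and near basement membranes, had 58.5, 61.8 and 54.1 CPM in control, 58.4, 86.2 and 115 CPM in PSCI, and 57.6, 66.0 and 67.5 CPM in taVNS (log2 0.58 ± 0.205 SE, adjusted p = 0.118, edgeR). It passed only without PSCI 1 (log2 0.79, adjusted p = 0.00617). Col9a3, a chain of the type IX collagen that coats cartilage fibrils, had 28.0, 20.8 and 17.9 CPM in control, 32.1, 18.7 and 36.2 CPM in PSCI, and 26.6, 24.0 and 21.1 CPM in taVNS, with overlapping groups.

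The network-forming and other chains were low. Col8a2, of the type VIII collagen made by vascular cells, had 3.04, 4.11 and 1.54 CPM in control, 0.954, 6.88 and 0.653 CPM in PSCI, and 1.47, 1.19 and 15 CPM in taVNS. Its peaks were the 2 libraries with the high meningeal sums, and the difference in PSCI was log2 -0.03 ± 1.11 SE (adjusted p = 0.99, edgeR) with them and -1.86 ± 0.487 SE (adjusted p = 0.0533) without them. Col8a1 held 1, 1 and 0 counts in control, 3, 33 and 3 in PSCI, and 0, 0 and 4 in taVNS, so that 33 of its 45 counts came from PSCI 2. Col10a1, of the growth plate, held 1 to 8 counts per library. Col7a1, of the anchoring fibrils of skin, had 1.66, 4.82 and 3.23 CPM in control, 4.63, 9.5 and 5.81 CPM in PSCI, and 4.27, 4.90 and 5.40 CPM in taVNS, with PSCI 1 inside the control range. Col26a1 had 0.966, 0.637 and 0.882 CPM in control, 0.341, 0.701 and 0.261 CPM in PSCI, and 1.40, 0.839 and 1.84 CPM in taVNS. Col28a1 had 0.621, 2.20 and 1.84 CPM in control, 1.30, 1.15 and 1.44 CPM in PSCI, and 1.89, 0.909 and 2.05 CPM in taVNS. None of these 3 passed the test.

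Stimulated rats were next compared with unstimulated PSCI rats. Here 8 of 40 collagens changed (20%), against a background of 5.75% over all genes. Col25a1, Col11a2, Col27a1 and Col24a1 were higher in taVNS, where the background for higher calls was 0.842%, and Col13a1, Col11a1, Col15a1 and Col4a1 were lower, where it was 4.91%. The median log2 difference of the 40 was 0.0595, against -0.00151 over all genes. In 7 collagens all 3 taVNS values lay above PSCI and in 6 all lay below, while 25.9% of all genes were separated, 10.6% upward and 15.2% downward. This comparison and the previous one use the same 3 PSCI libraries, so an opposite sign in both is not independent evidence. By class, 3 of 11 fibrillar chains rose and 1 fell, 2 of 7 basement membrane chains fell with a median log2 difference of -0.514, and 1 of 3 transmembrane chains rose and 1 fell.

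Col25a1 rose 2.10-fold in taVNS against PSCI (log2 1.07 ± 0.104 SE, adjusted p = 0.00133, edgeR) and kept its call under all 18 alternatives, with a largest adjusted p of 0.0121. Col11a2 rose 3.02-fold (log2 1.60 ± 0.25 SE, adjusted p = 0.0105, edgeR). That call was lost without taVNS 1 (adjusted p = 0.0621) and with only PSCI and taVNS fitted. Col27a1 rose 2.64-fold (log2 1.40 ± 0.247 SE, adjusted p = 0.0157, edgeR), a call lost without PSCI 3 (adjusted p = 0.0518), taVNS 1 (adjusted p = 0.0673) or taVNS 3 (adjusted p = 0.0528). Each of these 3 genes had all taVNS values above all PSCI values.

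The other 5 calls depended on more of the libraries and on the method. Col24a1 rose 2.86-fold (log2 1.52 ± 0.357 SE, adjusted p = 0.043, edgeR), and Col13a1 fell by 1.94 on the log2 scale (SE 0.427, adjusted p = 0.0329). Col11a1 fell by 1.00 (SE 0.22, adjusted p = 0.0345), Col15a1 by 1.94 (SE 0.459, adjusted p = 0.0444) and Col4a1 by 0.84 (SE 0.208, adjusted p = 0.0499, edgeR). Their groups did not overlap, but every one of the 5 calls was lost without PSCI 3, taVNS 1 or taVNS 2, and without control 2, which is in neither group of this comparison. Col4a1, Col24a1 and Col15a1 were lost without PSCI 2 or control 3, Col13a1 without PSCI 2, and Col11a1 without control 3. Col24a1, Col11a1 and Col15a1 were lost without control 1, and Col4a1, Col11a1, Col13a1 and Col15a1 without taVNS 3. In these fits the adjusted p ran from 0.0543 for Col11a1 without control 3 to 0.191 for Col4a1 without taVNS 1. Col4a1, Col15a1 and Col24a1 were also lost with limma-voom and in both RPKM fits, and Col4a1 with DESeq2 size factors or no filter. A replicate block lost Col13a1, Col15a1 and Col24a1, and the RPKM fit with 0.1 added lost Col11a1. Of the 18 alternatives, 14 lost Col4a1, 14 lost Col15a1 and 12 lost Col24a1. With PSCI 2 and taVNS 3 both left out, Col25a1, Col11a2, Col24a1 and Col11a1 remained called. Of the collagens not called, 3 passed without 1 library: Col16a1 (adjusted p = 0.0169) and Col5a3 (adjusted p = 0.00833) were lower without PSCI 1, and Col19a1 was higher without control 1 (adjusted p = 0.0466) or control 3 (adjusted p = 0.0348). Fitted on PSCI and taVNS alone, 2 collagens passed, Col25a1 and Col27a1.

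Stimulated rats did not differ from control in any collagen at the adjusted threshold: edgeR called 0 of 40 and 0 of 14840 genes (0%). At an unadjusted edgeR p under 0.05 there were 557 genes (3.75%), of which Col1a2 was the only collagen. DESeq2 called 0 collagens and 9 genes. A missed threshold does not show equal levels, and the 95% interval of the difference was narrowest for Col25a1 (log2 0.00, from -0.236 to 0.232). It ran from -0.193 to 0.754 for Col4a1, from -0.262 to 0.744 for Col11a1, from -0.291 to 0.831 for Col11a2 and from -0.298 to 0.805 for Col27a1. Among the collagens called in another comparison, wider intervals were those of Col18a1 (-0.228 to 1.05), Col24a1 (-0.531 to 1.03), Col13a1 (-0.786 to 1.37) and Col15a1 (-0.41 to 1.85). Some collagens with no call had still wider ones, among them Col8a2 (-1.42 to 3.46), Col3a1 (-0.196 to 4.06), Col6a3 (-0.996 to 3.05) and Col1a2 (0.272 to 4.38), whose interval before adjustment lies above 0. The Col1a2 difference rested on taVNS 3, with 73.8 CPM against 5.26 CPM in taVNS 1 and 9.65 CPM in taVNS 2. Without PSCI 2 and taVNS 3 it went from log2 2.33 to 0.33 ± 0.276 SE (edgeR). In 34 of 40 collagens the taVNS estimate was above control (median log2 difference 0.285), against 7505 of all 14840 genes (median 0.00226). The 7 tested basement membrane chains were among the 34, with a median log2 difference of 0.413. The count of 34 leaned in part on PSCI 2 and taVNS 3. Without them Col6a2 went from log2 0.51 to -0.87, Col8a2 from 1.02 to -1.13 and Col5a1 from 0.28 to -0.35. The 7 basement membrane chains stayed above 0. All 3 taVNS values lay above all control values in Col11a2, Col15a1 and Col22a1 and below in none, 3 of 40 against 11.1% of all genes.

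The proportion of chains of the same collagen type was described for 6 pairs, chosen after their values had been seen. The type XI pair joins 2 genes already called in opposite directions, so its ratio adds no independent evidence. The RPKM ratio of Col11a2 to Col11a1 was 12.9, 17.7 and 13.3 in control, 3.59, 1.82 and 2.14 in PSCI, and 16.2, 18.2 and 11.2 in taVNS. The PSCI ratios were below all others. The ratio of Col9a3 to Col9a2 was 2.04, 2.12 and 2.22 in control, 2.84, 4.73 and 3.32 in PSCI, and 2.43, 1.89 and 1.75 in taVNS, with PSCI above both other groups. For Col4a1 to Col4a2 it was 0.507, 0.566 and 0.403 in control, 0.56, 0.883 and 0.658 in PSCI, and 0.425, 0.428 and 0.467 in taVNS, so that PSCI 1 lay inside the control range. With 3 rats a group, the smallest p of a two-sided exact permutation test is 0.1. This lies above the threshold for a call, so the test could not have called any ratio, and no conclusion is drawn from it. The smallest p was reached in PSCI against control for the type XI and type IX pairs. In taVNS against PSCI it was reached for the same pairs and for Col4a1 to Col4a2. After adjustment over 18 tests the smallest value was 0.36. Col1a1 to Col1a2 ranged from 0.403 to 1.02 over the 9 libraries, with overlapping groups. Other ratios varied widely between rats of the same group: Col6a1 to Col6a2 ran from 0.534 to 9.15 within PSCI and from 0.428 to 7.79 within taVNS, and Col5a1 to Col5a2 from 0.41 to 1.59 within PSCI.

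**Figure D4:**
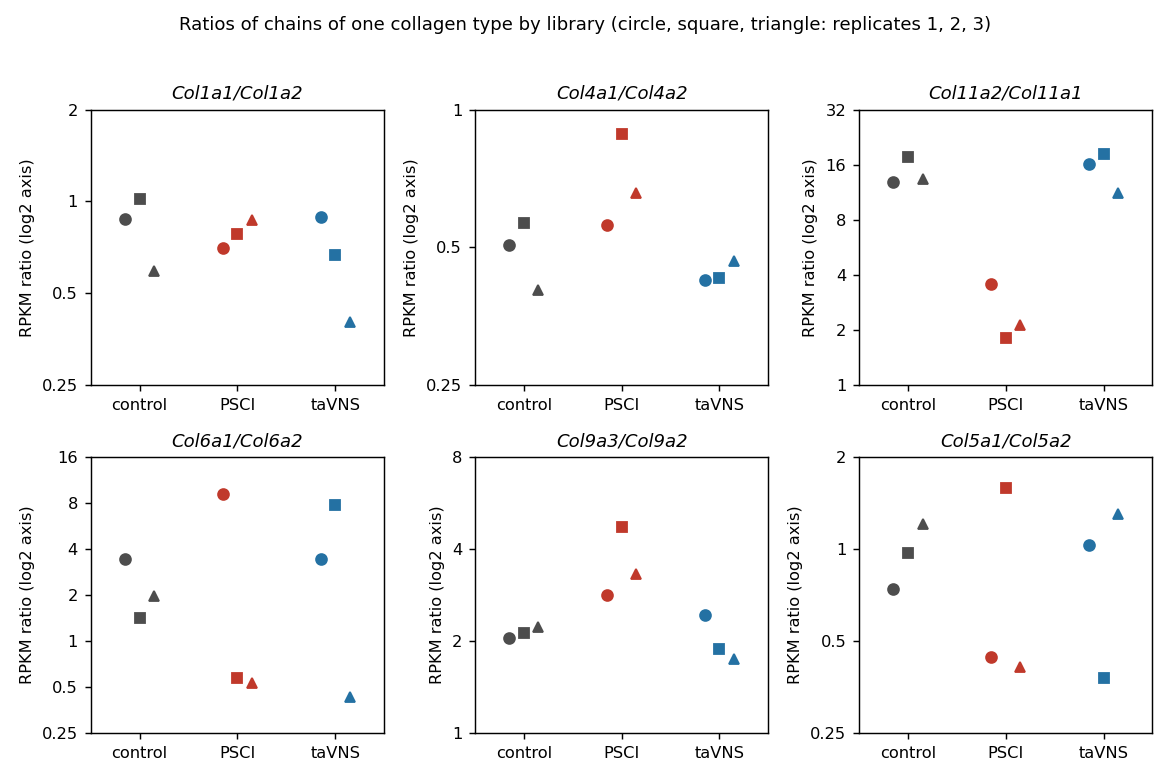
Ratio of the RPKM of 2 chains of the same collagen type in each library, on a log2 axis, by group, for 6 pairs. For Col11a2 to Col11a1 the PSCI points, 1.82 to 3.59, lie below the control and taVNS points, 11.2 to 18.2.

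Genes that act on collagen were higher in PSCI where they changed. Over all genes 7.71% were called higher and 2.14% lower in PSCI. Of 30 tested enzymes and chaperones of collagen synthesis and crosslinking, 7 rose (23.3%) and none fell, with a median log2 difference of 0.465. Plod1, a lysyl hydroxylase, rose from 22.2 ± 2.58 to 40.5 ± 5.11 CPM (SD, n = 3, log2 0.87 ± 0.126 SE, adjusted p = 0.00469, edgeR). Colgalt1, which attaches galactose to collagen, rose from 28.0 ± 1.99 to 45.4 ± 4.13 CPM (adjusted p = 0.00881). Lox, the crosslinking enzyme lysyl oxidase, stood at 1.73, 1.13 and 1.25 CPM in control, 9.27, 11.9 and 66.1 CPM in PSCI, and 1.75, 1.89 and 4.03 CPM in taVNS. Its rise (log2 4.40 ± 0.782 SE, adjusted p = 0.0114, edgeR) was lost with limma-voom (adjusted p = 0.106) and without control 2 (adjusted p = 0.058) or control 3 (adjusted p = 0.0608). In taVNS against PSCI, 5 of the 30 fell and none rose: Lox, Plod1, P4hb, Plod2 and Ppib (16.7%, against 4.91% of all genes called lower). Lox lost that call without any 1 control or taVNS library (adjusted p up to 0.141), and Plod1 without control 2, PSCI 2, PSCI 3 or any 1 taVNS library (up to 0.149). Lox also lost it with limma-voom and in the RPKM fit with 1 added. Plod1 also lost it in both RPKM fits, with a replicate block and without PSCI 2 and taVNS 3 together. With only the groups compared, Lox and Plod1 both lost it.

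Of 15 tested genes of collagen degradation and its control, Mmp19, Timp1 and Mmp2 rose in PSCI (20%, against 7.71% of all genes) and none fell. The same 3 fell in taVNS against PSCI (20%, against 4.91% of all genes called lower). Mmp2, a gelatinase, had 9.52, 6.94 and 6.68 CPM in control, 15.5, 23.4 and 23.0 CPM in PSCI, and 6.52, 8.67 and 8.81 CPM in taVNS (log2 1.42 ± 0.216 SE, adjusted p = 0.00597 in PSCI against control). Timp1, an inhibitor of these proteases, had 1.38, 1.2 and 1.62 CPM in control, 19.6, 129 and 46.9 CPM in PSCI, and 1.61, 1.96 and 7.45 CPM in taVNS (log2 5.54 ± 0.833 SE, adjusted p = 0.00591, edgeR, and 0.0586 with limma-voom). Both had all PSCI values above all others. Mmp19 rose from 0.803 ± 0.132 to 12.1 ± 7.38 CPM (SD, n = 3, adjusted p = 0.00286, edgeR). Mmp2 lost its taVNS against PSCI call without taVNS 1 (adjusted p = 0.0583), Timp1 without taVNS 1 or taVNS 2 (up to 0.0834), and Mmp19 without PSCI 3 or any taVNS library (up to 0.0984). Timp1 and Mmp19 also lost it with limma-voom and with only the groups compared, and Mmp19 without PSCI 2 and taVNS 3 together.

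Among 10 tested receptors, 4 rose in PSCI (40%, against 7.71% of all genes) and none fell. Ddr1, a receptor kinase for fibrillar collagen, rose from 102 ± 22.1 to 192 ± 27.8 CPM (SD, n = 3, adjusted p = 0.014, edgeR, and 0.0511 without PSCI 3). Cd44 rose from 13.3 ± 3.3 to 80.7 ± 65.2 CPM (adjusted p = 0.016, lost without control 2 or control 3 at up to 0.0731) and Itga1, an integrin chain that binds collagen, from 6.35 ± 1.68 to 14.9 ± 2.81 CPM (adjusted p = 0.0216, lost without control 1, control 3 or PSCI 3 at up to 0.0899). The Cd44 call was also lost with limma-voom (adjusted p = 0.0554) and in edgeR with only the groups compared (adjusted p = 0.0522). Itgb1 was the remaining receptor called.

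Of 15 basement membrane partners of type IV collagen, Hspg2 (perlecan) and Nid1 (nidogen) rose, which is 13.3% and near the share of 7.71% called higher over all genes. Hspg2 went from 6.31 ± 2.21 to 23.1 ± 12.2 CPM (SD, n = 3, adjusted p = 0.0277, edgeR) and Nid1 from 9.29 ± 0.858 to 22.5 ± 7.59 CPM (adjusted p = 0.0284). Both calls were lost without any 1 of the control libraries, PSCI 2 or PSCI 3, with adjusted p up to 0.109. Both were also lost with limma-voom (adjusted p = 0.0626 and 0.0527) and in the limma fit of RPKM with 1 added (0.0614 and 0.0517). Hspg2 was further lost in edgeR with only the groups compared (adjusted p = 0.0557), and Nid1 with a replicate block (adjusted p = 0.0562). Of 9 tested proteoglycans and fibril partners, all had a log2 difference above 0, with a median of 1.69, and 3 rose (33.3%, against 7.71% of all genes). Fn1 (fibronectin) rose from 21.9 ± 8.44 to 149 ± 77.5 CPM (adjusted p = 0.0113, and 0.0509 without control 3). Bgn (biglycan) rose from 14.8 ± 4.27 to 47.7 ± 12.5 CPM (adjusted p = 0.0216, lost without control 2, control 3 or PSCI 3 at up to 0.0931), and Thbs1 (thrombospondin) from 3.75 ± 0.407 to 16.5 ± 10.7 CPM (adjusted p = 0.025, lost without any 1 control library or PSCI 3 at up to 0.0882). Bgn was also lost in edgeR with a replicate block (adjusted p = 0.0539). Thbs1 was also lost with limma-voom (adjusted p = 0.0822) and in the limma fit of RPKM with 1 added (adjusted p = 0.0613). In taVNS against PSCI, Cd44 and Itgb1 fell among the receptors (20%) and Fn1 among the fibril partners (11.1%), and no basement membrane partner passed. Over all genes 4.91% were called lower in that comparison. Cd44 lost that call without any 1 control or taVNS library or PSCI 3 (adjusted p up to 0.15), and Fn1 without control 2 or 3, PSCI 2 or 3, or taVNS 1 or 2 (up to 0.142). Cd44 also lost it with limma-voom, in both RPKM fits, with a replicate block and without PSCI 2 and taVNS 3 together. With only the groups compared, Cd44 and Fn1 both lost it.

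Markers of cell types were read beside the share of 7.71% of all genes called higher in PSCI against control. The sum of 9 microglial and macrophage markers was 252, 220 and 185 CPM in control, 465, 729 and 577 CPM in PSCI, and 271, 287 and 343 CPM in taVNS. In PSCI 7 of the 9 rose (77.8%). Tmem119 went the other way, with 22.8, 21.2 and 16 CPM in control and 14, 14.9 and 11.7 CPM in PSCI (adjusted p = 0.104, edgeR). It was called higher in taVNS against PSCI (log2 0.95, adjusted p = 0.0252, edgeR). Astrocyte markers (7 genes) summed to 2390 to 3480 CPM in control, 6800 to 10400 CPM in PSCI and 2770 to 3670 CPM in taVNS. In PSCI 2 of them, Gfap and Aqp4, rose (28.6%). The astrocyte sum was carried by Gfap, which went from 946 ± 288 CPM in control to 6110 ± 1830 CPM in PSCI (SD, n = 3). Of the 7 log2 differences 5 were above 0, and those of Aldh1l1 (-0.26) and Slc1a2 (-0.44) were below. Pericyte and smooth muscle markers (11 genes) summed to 97.9, 148 and 109 CPM in control, 266, 284 and 223 CPM in PSCI, and 130, 133 and 182 CPM in taVNS, with Tagln, Anpep and Myh11 called (27.3%). Pdgfrb, on the same list, had 20.8, 24.2 and 17.0 CPM in control and 25.1, 23.5 and 22.5 CPM in PSCI. The 9 endothelial markers summed to 130 to 254 CPM in control, 246 to 273 CPM in PSCI and 220 to 277 CPM in taVNS. In PSCI 1 of them, Tie1, rose (11.1%), near the share over all genes. Among 17 tested meningeal and fibroblast markers 1, Omd, rose (5.88%), also near that share. No marker of these lists was at 0 in all libraries. The pericyte and smooth muscle sum was carried by Tagln, with 144, 117 and 99.7 CPM in PSCI against 5.07 to 10.5 CPM elsewhere; without it PSCI (122 to 167 CPM) overlapped control (87.9 to 139 CPM) and taVNS (119 to 171 CPM). The microglial and astrocyte sums were higher in every PSCI library than in any other, as were Col4a1, Col15a1, Col11a1 and Col13a1, and their part in these results was not tested.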

How the data were processed

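Gene tables of 9 rat hippocampus libraries were used. The authors deposited, for each library, estimated counts and RPKM values per gene, made from the reads with RSEM 1.2.8 and HISAT2 2.0.4 on the build mRatBN7.2, the tools listed in the submitters' processing notes. Which tool did which step, the annotation and the strand setting are not given in the sources used here. The estimated counts were rounded, filtered with filterByExpr and scaled by TMM in edgeR 4.0.16 (R 4.3.3, limma 3.58.1, DESeq2 1.42.0), leaving 14840 genes. All 9 libraries entered a single quasi-likelihood fit with group as its only term (6 residual degrees of freedom), from which 3 contrasts were taken. Calls needed a p below 0.05 after Benjamini-Hochberg adjustment over all tested genes. CPM are after TMM, and RPKM served to compare genes. Floors of 3 counts cover counting error only. The same log2 differences from RPKM stayed within 0.163 of those from counts for 36 members. The procedure was tested on simulated data. Members and lists were chosen with earlier results of these data known. Values in every library are given for called collagens and for the 3 members of highest mean RPKM in each class, and for related lists up to 3 called genes of smallest p in PSCI against control; Col1a1, Col1a2, Col3a1, Itgb1, Pdgfrb and other genes named beyond that were chosen after their values were seen. Alternatives were the DESeq2 size factors and test, limma-voom, no filter, RPKM with 0.1 or 1 added, only the compared groups, a replicate block, and leaving out libraries. Promoter windows came from RefSeq on GRCr8, where 35 of 44 members had an entry.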

Additional observations from a re-analysis of the deposited data

How the results depend on the processing

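No collagen called in a comparison changed direction under any of the 18 alternatives, and Col25a1 in both comparisons and Col4a1 in PSCI against control were called under all of them. The number of collagens called in PSCI against control, 8, became 15 (9 higher, 6 lower) with the DESeq2 Wald test, which added Col19a1, Col23a1, Col24a1, Col4a5, Col4a6, Col5a3 and Col6a6. With 1 library left out it ran from 3 (without control 2 or control 3) to 13 (without PSCI 1). In taVNS against PSCI the 8 became 5 with limma-voom, 4 and 5 with limma on log2(RPKM + 0.1) and log2(RPKM + 1), 2 with only the groups compared and 4 without PSCI 2 and taVNS 3 together, and ran from 1 (without taVNS 1) to 10 (without PSCI 1). In taVNS against control it was 0 throughout, 0 to 0 with 1 library left out. Over all genes, the 1461 calls of PSCI against control became 2257 with DESeq2 and 806 with only the groups compared, and ran from 548 (without control 3) to 2255 (without PSCI 1). The 854 calls of taVNS against PSCI became 1550 with DESeq2, 480 with limma-voom, 250 with only the groups compared and 361 without PSCI 2 and taVNS 3, and ran from 172 (without taVNS 1) to 1707 (without PSCI 1). The 0 calls of taVNS against control became 9 with DESeq2 and 1 without PSCI 2 and taVNS 3, and ran from 0 to 1 (without taVNS 3). The cause of these shifts was not tested. Replicate numbers did not pair the libraries: same-numbered libraries correlated at -0.468 to 0.255 in their deviations, other pairs at -0.388 to 0.458. With a replicate block, 7 collagens passed in PSCI against control and 5 in taVNS against PSCI (518 of all genes). Col4a4, Col8a1, Col10a1 and Col17a1 held 43 to 63 counts in all; without the filter on low counts they were tested and none was called.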

Other observations

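The low collagens not described above showed the 2 libraries with high meningeal sums unevenly. Col9a1, a chain of type IX collagen, had 5.61 CPM in PSCI 2 and 1.37 CPM in taVNS 3, with 0.629 to 1.98 CPM in the other libraries. Col6a4 had 3.63 CPM in PSCI 2 and 0.956 CPM in taVNS 3, with 0.207 to 0.955 CPM elsewhere. Col12a1, a fibril-associated chain of dense connective tissue, had 43.7 CPM in PSCI 2 and 48.9 CPM in taVNS 3, and control 3 reached 35.6 CPM. Col14a1 stayed between 0.196 and 1.82 CPM and was highest in taVNS 1. Col9a2 was lowest in PSCI 2, at 3.89 CPM, against 8.15 to 14.1 CPM in the other 8 libraries, and Col20a1 was also lowest there, at 4.27 CPM against 7.04 to 9.86 CPM. Col17a1, the transmembrane collagen of the skin, held 23 of its 63 counts in PSCI 2.

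The summed RPKM of the 4 transmembrane collagens was 28.1, 29.5 and 37.9 in control, 14.8, 18.3 and 16.2 in PSCI, and 35.5, 27.9 and 33.1 in taVNS. It was carried by Col25a1, with 23.8, 24.3 and 29.7 RPKM in control and 12.3, 12.7 and 13.3 RPKM in PSCI. Col13a1, which rose in PSCI, was at most 0.96 RPKM in any library. The sum over all 44 collagens was 172 to 242 RPKM in control, 199 to 267 RPKM in PSCI and 223 to 320 RPKM in taVNS, with overlapping groups.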
